A study of Homo sapiens with 9 samples.

Results

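The transcripts of 10 genes of the death receptor pathway were measured, TNFRSF10A, TNFRSF10B, TNFRSF10C, TNFRSF10D, TNFSF10, FAS, TNFRSF1A, FADD, CASP8 and CFLAR, in MDA-MB-231 cells exposed to 2-deoxy-D-glucose (2-DG). They encode the ligand TRAIL, receptors for TRAIL, FAS ligand and TNF, and proteins that pass on or restrain their signal at caspase-8. They were chosen by name, with earlier results of these data known, and they are 10 of the 61552 genes listed for each library. MDA-MB-231 is an established human triple-negative breast cancer line, labelled as wild type. The cells received phosphate-buffered saline (control, 0 mM 2-DG), 10 mM 2-DG or 20 mM 2-DG for 24 h, and each condition has 3 RNA-seq libraries. Cells take up 2-DG, an analogue of glucose, as they do glucose itself, and it blocks glycolysis and disturbs the glycosylation of proteins in the endoplasmic reticulum. Whether the libraries of a condition came from separate cultures is not stated, so p-values measure only the spread between these samples. The lactate-treated cells of the study were not analysed here.

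Death receptors are membrane proteins whose cytoplasmic death domain recruits the adaptor FADD, directly or, for TNFR1, through TRADD, once a ligand has clustered them. FADD in turn gathers procaspase-8, which becomes active by proximity and cleaves executioner caspases or the mitochondrial linker BID, while the caspase-like protein c-FLIP, encoded by CFLAR, holds it back. The TRAIL receptor DR5, encoded by TNFRSF10B, is a known target of CHOP, the stress transcription factor encoded by DDIT3, and this link is a textbook route from endoplasmic reticulum stress to caspase-8. The comparison of 2-DG with the control therefore asks whether transcripts of this pathway moved with exposure to 2-DG.

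Values are FPKM, read counts scaled by gene length and by library total. The totals counted on genes, recovered from the FPKM values, were between 30974968 and 40843638 reads per library. Mesenchymal markers of the line were present, with VIM between 243 and 313 FPKM, and AXL, CD44, CAV1 and EGFR were above 11 FPKM in all libraries. The receptors ESR1 and PGR were at or under 0.0204 FPKM and the blood cell genes CD3E, HBB and PTPRC at or under 0.0327 FPKM. EPCAM, expected low in this line, was between 2.61 and 4.51 FPKM, the monocyte marker CD14 between 1.14 and 3.83 FPKM and the endothelial marker PECAM1 between 0.826 and 1.95 FPKM. CD14 and PECAM1 had their highest means in the control (3.05 and 1.72 FPKM) and their lowest at 20 mM 2-DG (1.47 and 0.914 FPKM). CDH1, which encodes E-cadherin, had means of 0.365 FPKM in the control, 0.0493 FPKM at 10 mM and 0.0686 FPKM at 20 mM 2-DG. The part of these markers in the results that follow was not tested. RNA was extracted from bulk cultures, in which fewer cells with a transcript and less of it per cell cannot be told apart.

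TNFSF10 encodes TRAIL, the ligand of the 4 TNFRSF10 receptors, and lies on chromosome 3 (GRCh38, chr3:172505508-172523507, minus strand). TRAIL is made by many cell types, and its gene is known to be interferon-inducible. The 250 bases before its start in RefSeq (GRCh38.p14, chr3:172523431-172523680, minus strand) are shown because this gene had the largest change of the 10. The start in GENCODE 29, base 172523507, lies inside this window, so part of the window is within the gene as placed there. Capitals mark a match to the core of the interferon-stimulated response element, searched as TTTC, any 2 bases and TTTC, at bases -187 to -178 from the RefSeq start.
TNFSF10: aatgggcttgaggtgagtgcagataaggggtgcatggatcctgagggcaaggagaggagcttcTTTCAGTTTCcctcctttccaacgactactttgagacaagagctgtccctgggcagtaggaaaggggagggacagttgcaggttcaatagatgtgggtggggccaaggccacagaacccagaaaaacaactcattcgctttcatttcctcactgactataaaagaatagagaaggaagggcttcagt
This motif was searched on both strands and was present in 3.02% of 35116 RefSeq windows of the same length, and in 1 of the 13 windows of the 6 genes analysed in this way (TNFSF10, FAS, TNFRSF1A, FADD, CASP8 and CFLAR). The C/EBP-ATF composite TGATGNAAT, present in 0.888% of all windows, and a 10-letter NF-kB consensus, in 0.179%, had no match in the 13 windows. The AP-1 motif TGACTCA, in 4.20% of all windows, matched at CASP8, and the GC box GGGCGG, in 42.6%, matched at CASP8, CFLAR, FADD and FAS. Windows of the TNFRSF10 receptor genes, TNFRSF10B among them, were left out of these 13 windows. The lack of a C/EBP-ATF match therefore does not cover TNFRSF10B, and whether its window holds any of these motifs is not reported here. These motifs were chosen after the expression values had been seen, and a match describes letters in a window, not a bound site.

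TNFSF10 was 14.0, 15.1 and 15.3 FPKM in the control libraries, 5.50, 6.59 and 7.04 FPKM at 10 mM 2-DG and 5.77, 4.40 and 5.17 FPKM at 20 mM 2-DG. Every treated library was below every control library, and the dose groups overlapped. The control mean was 14.8 ± 0.713 FPKM (SD, n = 3). At 10 mM the mean was 6.38 ± 0.793 FPKM (SD, n = 3), 2.33-fold lower. At 20 mM it was 5.11 ± 0.688 FPKM (SD, n = 3), 2.90-fold lower. Fitted log2 fold changes, on the log2(FPKM + 1) scale throughout, were -1.11 (SE 0.10) at 10 mM and -1.38 (SE 0.10) at 20 mM. Benjamini-Hochberg adjusted p-values from limma's moderated test over all 16572 genes were 5.78e-05 and 8.86e-06. Of all genes tested, 0.881% at 10 mM and 0.827% at 20 mM had a lower fold change than TNFSF10. Between 20 mM and 10 mM 2-DG the fold change was -0.27 (95% interval -0.50 to -0.04), and it did not pass the test (limma's adjusted p = 0.650). Each control library held at least 1713 TNFSF10 reads and each treated library at least 588.

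**Figure D1:**
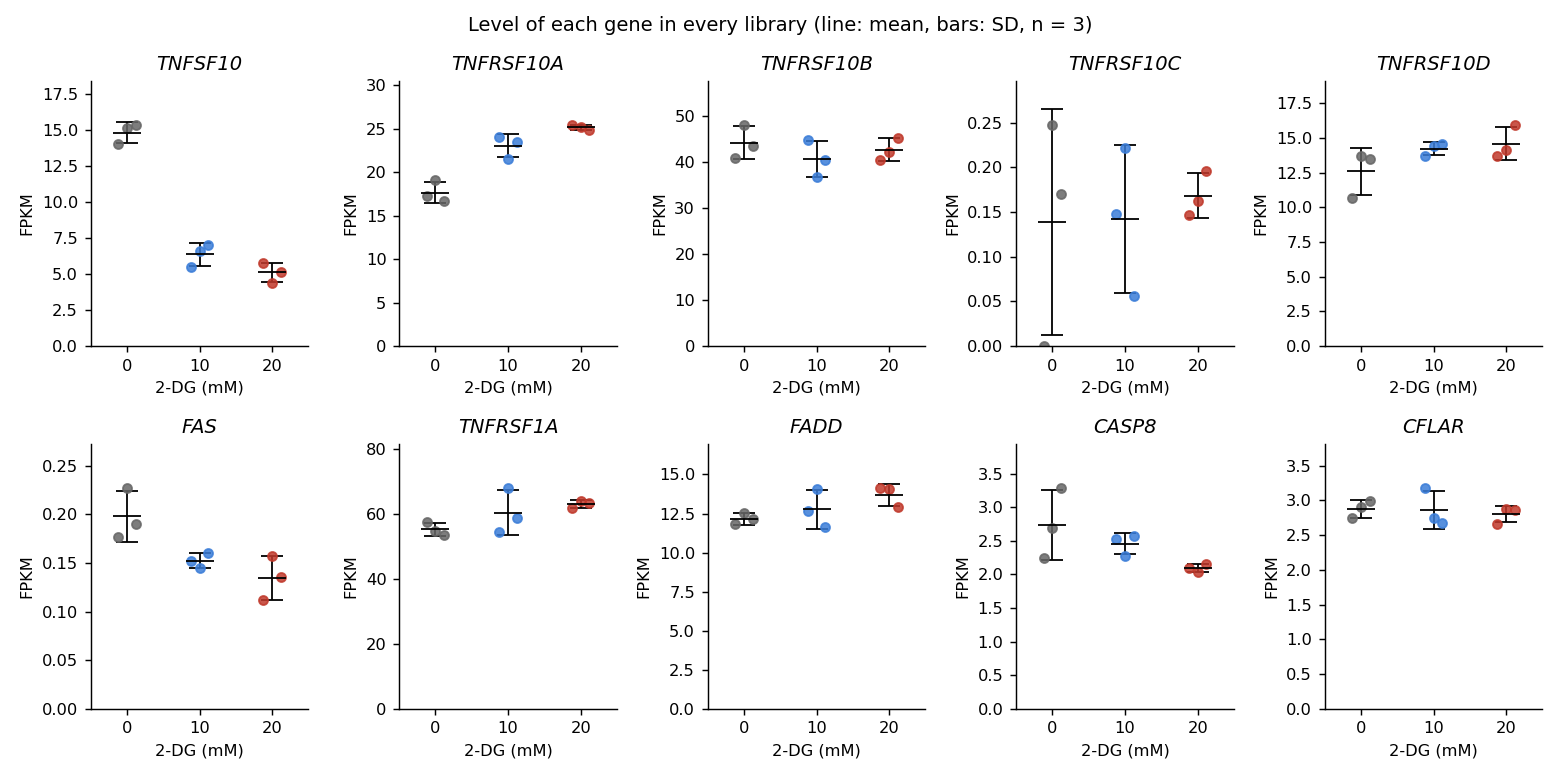
Level of each of the 10 genes in every library (y axis, FPKM, from 0, with a scale of its own in each panel) against the 2-DG dose (x axis, mM). Points are libraries, lines are means and bars are SD (n = 3); TNFSF10 drops from about 14.8 to 6.38 and 5.11 FPKM, TNFRSF10A climbs from 17.7 to 23.0 and 25.1 FPKM, and the TNFRSF10B groups overlap.

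The 4 TRAIL receptor genes form a cluster on chromosome 8 (GRCh38, GENCODE release 29). Their order is TNFRSF10B (chr8:23020133-23069179, minus strand), TNFRSF10C (chr8:23102590-23117437, plus strand), TNFRSF10D (chr8:23135588-23164030, minus strand) and TNFRSF10A (chr8:23190452-23225126, minus strand), with 18150 to 33410 bases between neighbours. TNFRSF10A and TNFRSF10B encode the death receptors DR4 and DR5, which carry a full death domain. TNFRSF10C and TNFRSF10D encode the decoys DcR1 and DcR2, which bind TRAIL without passing on a full death signal.

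TNFRSF10A was 17.3, 19.0 and 16.6 FPKM in the control libraries, 24.1, 21.5 and 23.4 FPKM at 10 mM 2-DG and 25.4, 25.2 and 24.8 FPKM at 20 mM 2-DG. The 3 groups did not overlap. From a control mean of 17.7 ± 1.24 FPKM (SD, n = 3) it rose 1.30-fold, to 23.0 ± 1.32 FPKM (SD, n = 3), and 1.42-fold, to 25.1 ± 0.307 FPKM (SD, n = 3). The log2 fold changes were 0.36 (SE 0.07, limma's adjusted p = 0.00251) and 0.49 (SE 0.07, limma's adjusted p = 0.000322). Larger rises were found for 8.21% of all genes tested at 10 mM and for 5.99% at 20 mM 2-DG. The step between the doses, 0.12 on the log2 scale (95% interval -0.02 to 0.27), did not pass the test (limma's adjusted p = 0.797). Exons of TNFRSF10A share 266 bases with AC100861.1 and 224 bases with TNFRSF10A-AS1, both on the opposite strand, and whether the counting used strand is not stated. AC100861.1 was 1.07 ± 0.1002, 0.650 ± 0.111 and 0.655 ± 0.177 FPKM with 0, 10 and 20 mM 2-DG (SD, n = 3 each), and TNFRSF10A-AS1 was 1.03 ± 0.504, 1.33 ± 0.580 and 0.610 ± 0.357 FPKM in the same order (SD, n = 3 each).

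TNFRSF10B was 40.9, 47.9 and 43.5 FPKM in the control libraries, 44.7, 36.7 and 40.4 FPKM at 10 mM 2-DG and 40.5, 42.2 and 45.2 FPKM at 20 mM 2-DG. All 3 groups overlapped. The means were 44.1 ± 3.55, 40.6 ± 3.98 and 42.6 ± 2.41 FPKM (SD, n = 3 each), from at least 6280 reads in each library. The log2 fold change was -0.12 (95% interval -0.31 to 0.07) at 10 mM and -0.05 (95% interval -0.24 to 0.14) at 20 mM 2-DG. limma's adjusted p-values were 0.328 and 0.706. On the FPKM + 1 scale the interval at 20 mM ran from 0.850-fold to 1.10-fold of the control.

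DDIT3, which encodes CHOP, was named beside TNFRSF10B because of the known link between these genes. It was 29.7, 23.8 and 28.2 FPKM in the control libraries, and it averaged 27.2 ± 3.09, 64.1 ± 11.3 and 77.1 ± 2.37 FPKM in the control, 10 mM and 20 mM groups (SD, n = 3 each). The log2 fold changes were 1.20 (limma's adjusted p = 7.17e-05) and 1.47 (limma's adjusted p = 1.22e-05), and no treated library overlapped a control library. DDIT3 rose in libraries in which the TNFRSF10B groups overlapped. Of the 5853 protein-coding genes with a mean of at least 5 FPKM, those whose library values ran closest to TNFRSF10B were AJUBA, OXSR1, YLPM1, IPO5 and RBFOX2, with root mean square differences of 0.04 to 0.05 on the log2 scale over the 9 libraries. Those closest to TNFSF10 were MAD2L1, CIP2A, KNSTRN, AURKA and KIF4A, with differences of 0.11 to 0.13. MAD2L1, for example, had log2 fold changes of -1.13 at 10 mM and -1.41 at 20 mM 2-DG.

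**Figure D2:**
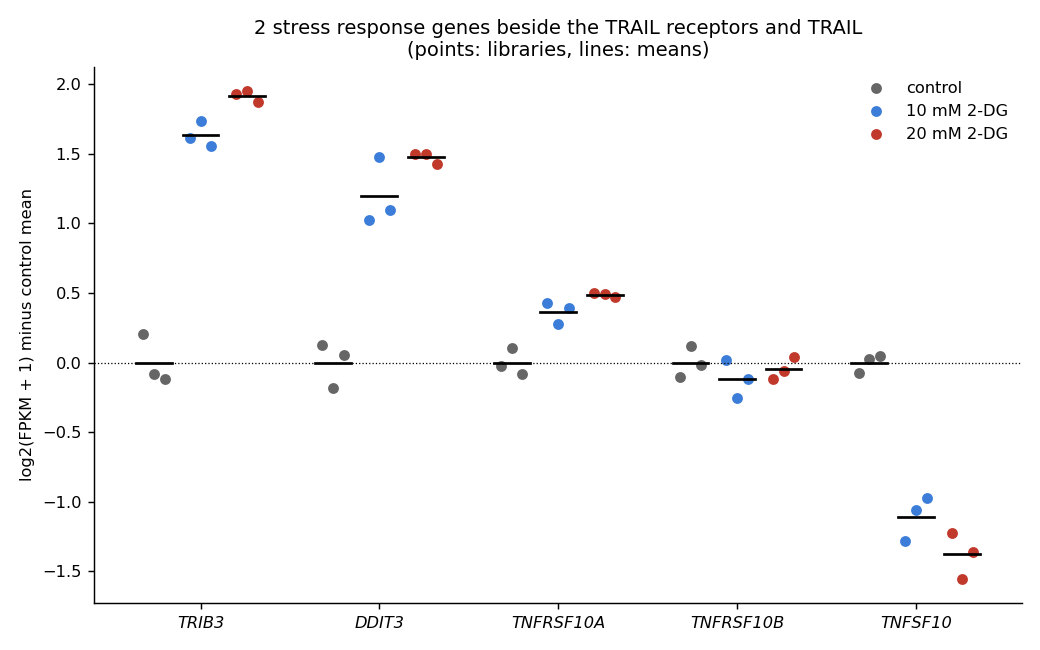
Difference of log2(FPKM + 1) from the control mean (y axis) for TRIB3, DDIT3, TNFRSF10A, TNFRSF10B and TNFSF10 (x axis), with points for libraries coloured by group and lines for means. The lowest treated library is at 1.56 for TRIB3 and at 1.03 for DDIT3, TNFRSF10B stays between -0.25 and 0.12 in all 9 libraries, and TNFSF10 has its highest treated library at -0.98.

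TNFRSF10D was 10.7, 13.7 and 13.5 FPKM in the control libraries, 13.7, 14.4 and 14.6 FPKM at 10 mM and 13.7, 14.2 and 15.9 FPKM at 20 mM 2-DG. The treated libraries lay just above the 2 higher control libraries, without overlap. The log2 fold changes of 0.17 (95% interval -0.04 to 0.38) and 0.20 (95% interval -0.01 to 0.41) did not pass the test, with limma's adjusted p-values of 0.212 and 0.125. With median-ratio scaling of the libraries the difference at 20 mM was 0.25 and passed (limma's adjusted p = 0.0420). Without control replicate 1 the log2 fold changes were 0.06 and 0.09 (limma's adjusted p = 0.608 and 0.384).

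TNFRSF10C, the other decoy, was near the limit of detection in these cells. The control libraries held 0, 14 and 9 reads, the 10 mM libraries 8, 14 and 3, and the 20 mM libraries 7, 10 and 10. These counts correspond to at most 0.247 FPKM, and the library with 0 reads allows up to 0.0547 FPKM (3 reads, counting error only). A difference was not detectable at this depth, with log2 fold changes of 0.01 and 0.04 and limma's adjusted p-values of 0.957 and 0.717. The pseudocount of 1 holds these values near 0, and a pseudocount of 0.1 gave 0.14 and 0.34, while limma-voom on the reads gave 0.86 and 1.24. These did not pass either, with adjusted p-values from limma of 0.840 and 0.561 and from limma-voom of 0.549 and 0.340. Its reads are uncertain for another reason, since 35.8% of the 75-base stretches of its longest coding transcript in GENCODE 29 also occur in AC107959.4 or AC107959.5, whose exons it shares on the same strand. For TNFRSF10A this share was 0.0%, for TNFRSF10B 0.0491% and for TNFRSF10D 0.115%.

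The ratio of TNFRSF10A to TNFRSF10B, set after the values had been seen, was between 0.382 and 0.423 in the control libraries, between 0.538 and 0.586 at 10 mM and between 0.548 and 0.627 at 20 mM 2-DG. The treated libraries lay above all control libraries. TNFRSF10B nevertheless stayed the more abundant per length in all 9 libraries. The summed death-signalling receptors, TNFRSF10A and TNFRSF10B, stood to the summed decoys at a ratio of 4.89 ± 0.536, 4.43 ± 0.497 and 4.60 ± 0.221 with 0, 10 and 20 mM 2-DG (SD, n = 3 each), and the groups overlapped.

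FAS, the receptor of FAS ligand on chromosome 10 (chr10:88990582-89015785, plus strand), was 0.177, 0.227 and 0.190 FPKM in the control libraries. It was 0.152, 0.145 and 0.160 FPKM at 10 mM and 0.112, 0.157 and 0.135 FPKM at 20 mM 2-DG. All treated libraries lay below all control libraries. The mean was 0.198 ± 0.0262, 0.152 ± 0.00786 and 0.135 ± 0.0225 FPKM with 0, 10 and 20 mM 2-DG (SD, n = 3 each), 1.30-fold and 1.47-fold lower. The pseudocount of 1 understates changes at such levels, and the fitted values of -0.06 and -0.08 did not pass the test (limma's adjusted p = 0.274 and 0.115). On the recovered reads, between 96 and 231 per library, limma-voom gave -0.38 at 10 mM with an adjusted p of 0.1202 and -0.55 at 20 mM 2-DG with an adjusted p of 0.0288. With a pseudocount of 0.1, limma gave -0.24 and -0.35 (adjusted p = 0.311 and 0.125).

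The FPKM values of FAS rest on a length of 27753 bases, longer than the span of the gene in GENCODE 29, whose exons cover 4253 bases. If all of these reads came from those exons, division by their length would give 1.29 ± 0.171, 0.994 ± 0.0513 and 0.878 ± 0.147 FPKM with 0, 10 and 20 mM 2-DG (SD, n = 3 each). Its place among the genes by level is therefore uncertain. The length cancels in its ratio between conditions, but the bases over which the reads were counted are not known. Reads from outside the FAS exons may be among them, and their part in the ratio and in the limma-voom result was not tested. FAS exons also share 380 bases with ACTA2 on the opposite strand, which was 0.583 ± 0.0621, 0.515 ± 0.0349 and 0.511 ± 0.175 FPKM in the 3 conditions (SD, n = 3 each).

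TNFRSF1A encodes the TNF receptor TNFR1 (chr12:6328757-6342114, minus strand) and had the highest level of the 10 genes. It was 57.4, 54.8 and 53.5 FPKM in the control libraries, 54.5, 68.0 and 58.9 FPKM at 10 mM and 61.8, 64.1 and 63.3 FPKM at 20 mM 2-DG. The 20 mM libraries lay above the control libraries and the 10 mM libraries overlapped them. The log2 fold changes were 0.12 and 0.19, with limma's adjusted p-values of 0.261 and 0.0801. At 20 mM the 95% interval was 0.02 to 0.36. Without the first 10 mM library the adjusted p at 20 mM was 0.0378 and without the second it was 0.0168, since these libraries enter the estimate of the spread.

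FADD, the adaptor between death domains and caspase-8 (chr11:70203163-70207390, plus strand), was 11.8, 12.6 and 12.1 FPKM in the control libraries. It was 12.6, 14.1 and 11.6 FPKM at 10 mM and 14.1, 14.1 and 12.9 FPKM at 20 mM 2-DG. The 20 mM libraries lay above the control libraries, and the log2 fold changes of 0.06 and 0.16 did not pass the test (limma's adjusted p = 0.584 and 0.126). Its exons share 1011 bases with AP000879.1 on the opposite strand, which was listed at 0 in all libraries.

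CASP8 and CFLAR are neighbours on chromosome 2. CFLAR (chr2:201116104-201176687) and CASP8 (chr2:201233443-201287711) are both on the plus strand, 56755 bases apart, with CASP10, the closest relative of CASP8, between them. CASP8 was 2.24, 2.69 and 3.29 FPKM in the control libraries, 2.53, 2.28 and 2.57 FPKM at 10 mM and 2.10, 2.04 and 2.15 FPKM at 20 mM 2-DG. The 20 mM libraries were the lowest, below every library of the other groups, and the control libraries spread the most. The log2 fold changes were -0.10 (95% interval -0.34 to 0.14) at 10 mM and -0.26 (95% interval -0.50 to -0.02) at 20 mM 2-DG. They did not pass the test (limma's adjusted p = 0.508 and 0.0813). At 20 mM limma-voom on the recovered reads gave -0.37 with an adjusted p of 0.0458, and without the first control library limma gave -0.36 with an adjusted p of 0.0252. Without control replicate 3 the values were -0.0016 at 10 mM (limma's adjusted p = 0.993) and -0.16 at 20 mM (limma's adjusted p = 0.260).

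CFLAR was 2.74, 2.90 and 2.99 FPKM in the control libraries, 3.18, 2.74 and 2.67 FPKM at 10 mM and 2.67, 2.87 and 2.86 FPKM at 20 mM 2-DG. The groups overlapped, from at least 1856 reads in each library. The log2 fold change was -0.01 (95% interval -0.20 to 0.18) at 10 mM and -0.03 (95% interval -0.22 to 0.16) at 20 mM, with limma's adjusted p-values of 0.958 and 0.817. Gene values cannot separate the long and short forms of c-FLIP, nor the membrane and soluble forms of FAS. CFLAR exons overlap IMPDH1P10 and CFLAR-AS1 on the opposite strand, with means of 0.170 and 0.0489 FPKM over the 9 libraries.

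The ratio of CASP8 to CFLAR, in FPKM, was between 0.818 and 1.10 in the control libraries, between 0.796 and 0.962 at 10 mM and between 0.710 and 0.787 at 20 mM 2-DG. Its mean was 0.948 ± 0.141, 0.863 ± 0.0876 and 0.750 ± 0.0382 with 0, 10 and 20 mM 2-DG (SD, n = 3 each). The 20 mM libraries lay below the others. This ratio is given as a description without a test.

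**Figure D3:**
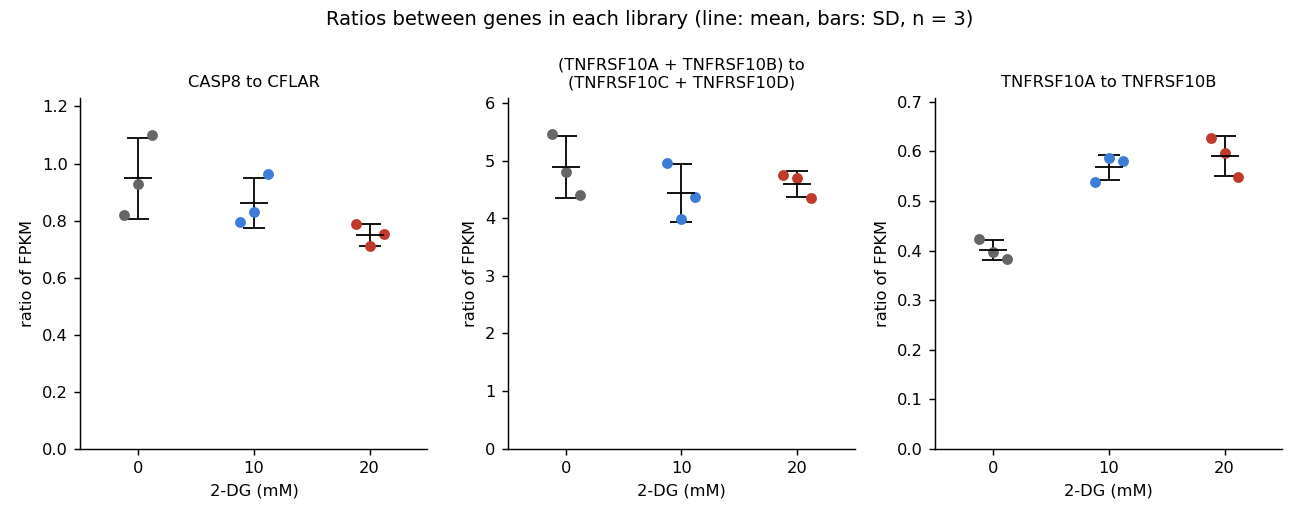
Ratios of FPKM between genes in each library (y axis, from 0) against the 2-DG dose (x axis, mM), with points for libraries, lines for means and bars for SD (n = 3). The ratio of CASP8 to CFLAR has means of 0.948, 0.863 and 0.750, the ratio of the death-signalling receptors to the decoys 4.89, 4.43 and 4.60, and the ratio of TNFRSF10A to TNFRSF10B 0.401, 0.568 and 0.591.

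By level in the control, TNFRSF1A (55.2 FPKM) came first, followed by TNFRSF10B (44.1), TNFRSF10A (17.7), TNFSF10 (14.8), TNFRSF10D (12.6), FADD (12.2), CFLAR (2.88), CASP8 (2.74), FAS (0.198) and TNFRSF10C (0.139). The libraries of TNFRSF10D and FADD, of CFLAR and CASP8, and of FAS and TNFRSF10C overlapped, so these neighbours were not ordered beyond their spread. At both doses TNFSF10 stood below TNFRSF10D and FADD, without overlap with its neighbours, and CASP8 stood below CFLAR without overlap. Levels were compared per length, and the lengths behind FAS (27753 bases) and CFLAR (22478 bases) are the longest of the 10, and a longer length gives a lower FPKM for the same reads.

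All 10 genes passed the filter on low values, and 1 of them (TNFRSF10A) was called higher and 1 (TNFSF10) lower at 10 mM 2-DG. In that comparison 29.7% of all 16572 genes tested were called at an adjusted p under 0.05 in limma's test, 12.1% higher and 17.5% lower. At 20 mM 2-DG the same genes were called, 1 higher and 1 lower, where 37.0% of all genes were called, 15.4% higher and 21.6% lower. Both doses were compared with the same 3 control libraries and are not independent of each other. Treated and control libraries did not overlap for 4 of the 10 genes at 10 mM, where 40.5% of all genes did not overlap, and for 7 of the 10 at 20 mM, where 53.3% did not. The median log2 fold change of the 10 genes was 0.00 at 10 mM and 0.01 at 20 mM, beside -0.01 and -0.02 over all genes tested.

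Between 20 mM and 10 mM 2-DG, 0 of the 10 genes and 0.0% of all genes passed the adjusted threshold of limma's test, and limma-voom on the recovered reads also called 0 of the 10. At an unadjusted threshold of 0.05, limma's test passed 1 of the 10, TNFSF10, and 6.87% of all genes. The same threshold passed 2 of the 10 and 40.4% of all genes at 10 mM against the control, and 4 of the 10 and 46.0% at 20 mM. The study's methods set 0.05 for p together with a log2 change of more than 1 in size, for a fit to counts and without saying whether p was adjusted. Applied to limma's unadjusted p on log2(FPKM + 1), these thresholds called TNFSF10 lower at both doses, where 1.16% of all genes at 10 mM and 1.96% at 20 mM were, and they called 0 of the 10 genes higher, where 0.579% and 0.965% of all genes were. Between the doses 0 of the 10 and 0.00603% of all genes were called higher.

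**Figure D4:**
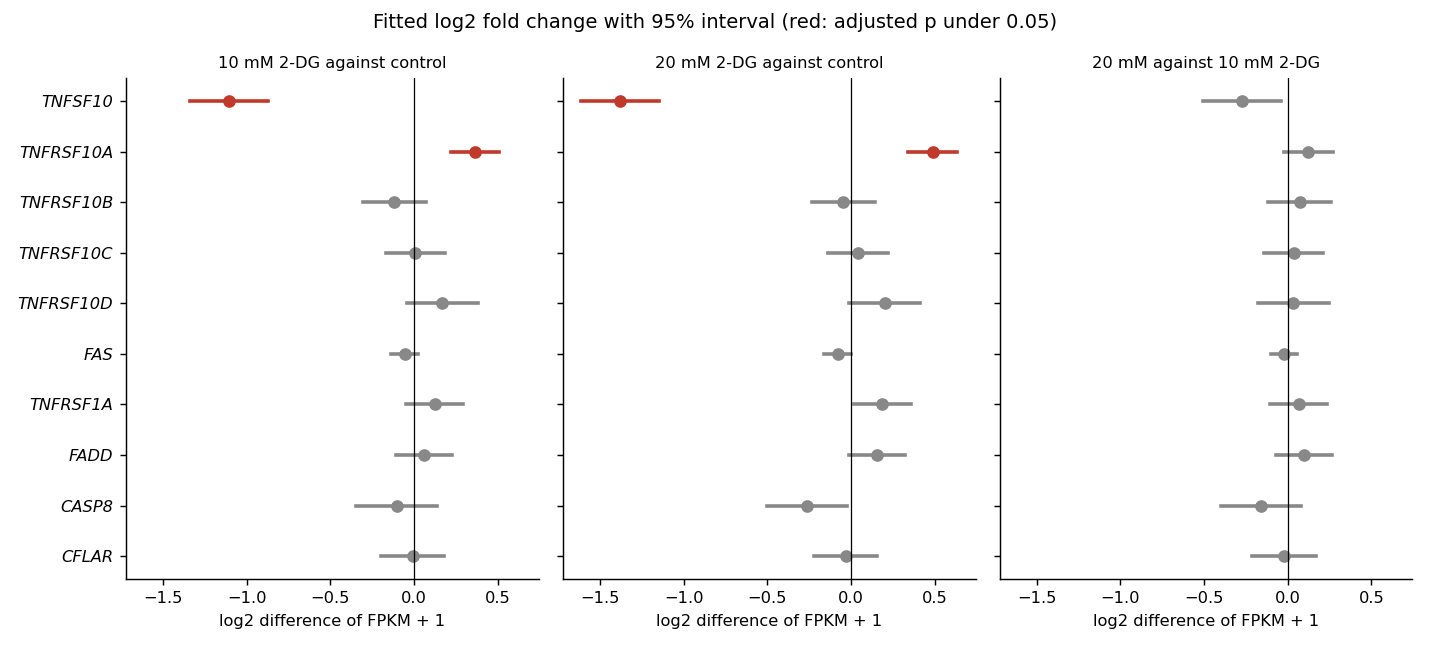
Fitted log2 fold change of FPKM + 1 (x axis) with its 95% interval for each of the 10 genes (y axis) in the 3 comparisons, in red where limma's adjusted p was under 0.05. TNFSF10 (-1.11 and -1.38) and TNFRSF10A (0.36 and 0.49) are red against the control, and no gene is red between the doses.

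Other receptors, decoys and ligands of the family were measured as a list of 14, of which 10 passed the filter. At both doses 3 were called higher, TNFSF15, LTBR and TNFRSF12A, and 1 lower, TNFRSF21 (2 lower at 20 mM without control replicate 1). Of all genes tested, 12.1% were called higher and 17.5% lower at 10 mM, and 15.4% and 21.6% at 20 mM. The median log2 fold change of the list was 0.10 at 10 mM and -0.06 at 20 mM. TNFSF15, which encodes the ligand TL1A of DR3, rose from 1.18 ± 0.191 FPKM to 3.44 ± 0.377 and 2.77 ± 0.314 FPKM (SD, n = 3 each), with log2 fold changes of 1.03 and 0.79 (limma's adjusted p = 0.000102 and 0.000334). LTBR, the lymphotoxin beta receptor, which has no death domain, rose from 36.4 ± 1.80 to 55.8 ± 3.42 and 56.0 ± 1.18 FPKM (SD, n = 3 each), with log2 fold changes of 0.60 and 0.61. TNFRSF21, which encodes the death domain receptor DR6, fell by 0.51 and 0.50 on the log2 scale from 55.6 ± 6.89 FPKM (SD, n = 3). Transcripts of FAS ligand and TNF were nearly absent. FASLG and TNF were at or under 0.113 and 0.126 FPKM (at most 7 reads each in a library), EDAR at or under 0.00568 FPKM, and TNFRSF6B, the soluble FAS ligand decoy, was listed at 0.

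Partners of FADD and TNFR1 were measured as a list of 26 genes, of which 25 passed the filter and RIPK3, at or under 0.144 FPKM, did not. At 10 mM 2-DG 4 were called higher and 4 lower, and at 20 mM 5 higher and 7 lower, with medians of -0.04 and -0.07. Over all genes, 12.1% were called higher and 17.5% lower at 10 mM (29.7% in all), and 15.4% and 21.6% at 20 mM (37.0% in all). Without 20 mM replicate 1 or 2 the number lower at 20 mM was 4. RBCK1, a subunit of the linear ubiquitin ligase that modifies the TNFR1 complex, rose from 58.1 ± 4.84 to 106 ± 5.73 and 111 ± 4.68 FPKM (SD, n = 3 each), with log2 fold changes of 0.85 and 0.93 (limma's adjusted p = 2.97e-05 and 9.93e-06). The other subunits of that ligase, RNF31 and SHARPIN, had log2 fold changes of -0.06 and 0.01 at 20 mM and were not called. BIRC3, the ubiquitin ligase cIAP2, fell from 9.92 ± 1.79 to 5.95 ± 0.689 and 4.64 ± 0.393 FPKM (SD, n = 3 each), by 0.64 and 0.94 on the log2 scale (limma's adjusted p = 0.00393 and 0.000297). The related BIRC2 had a log2 fold change of -0.07 at 20 mM and was not called.

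Also called at both doses were RIPK1, the kinase of the TNFR1 complex (0.41 and 0.43), MLKL, the effector of necroptosis (0.63 and 0.60), and PEA15, a death effector domain protein that binds FADD and caspase-8 (0.46 and 0.52). TRAF2, which recruits the cIAP proteins, fell by 0.35 and 0.42, and FAF1, a FAS-associated factor, by 0.28 and 0.35 on the log2 scale. CASP10, beside CASP8 on chromosome 2, was 1.03 ± 0.0567, 0.590 ± 0.0796 and 0.551 ± 0.158 FPKM with 0, 10 and 20 mM 2-DG (SD, n = 3 each). Its log2 fold changes were -0.35 and -0.39 (limma's adjusted p = 0.0102 and 0.00456), and with no filter on low values the call at 10 mM was lost (limma's adjusted p = 0.0592).

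Of the 12 genes of the effector caspases and the mitochondrial arm, all 12 passed the filter. CASP6 and BID were called lower at 10 mM, where 0 were called higher. At 20 mM 3 were called lower, CASP6, BID and APAF1, and 1 higher, HTRA2. The shares over all genes were 17.5% lower and 12.1% higher at 10 mM, and 21.6% lower and 15.4% higher at 20 mM. The HTRA2 call was lost when any control or 20 mM library was left out and in limma-voom. At 10 mM the number lower was 1 without control replicate 3, with median-ratio scaling, with the replicate block or with no filter on low values, and 1 was higher without 10 mM replicate 2. The medians were -0.09 and -0.07. BID, the substrate through which caspase-8 reaches mitochondria, fell from 12.2 ± 0.654 to 9.14 ± 1.11 and 7.97 ± 0.722 FPKM (SD, n = 3 each), by 0.38 and 0.56 on the log2 scale (limma's adjusted p = 0.0124 and 0.00129). APAF1, the scaffold of the apoptosome, was 2.41 ± 0.736, 1.41 ± 0.474 and 1.21 ± 0.123 FPKM (SD, n = 3 each), with log2 fold changes of -0.49 and -0.60 (limma's adjusted p = 0.0559 and 0.0207). The APAF1 call at 20 mM was lost without control replicate 2 or 3 and without 20 mM replicate 1 or 2, with limma's adjusted p-values up to 0.0692, and with no filter on low values (limma's adjusted p = 0.0697). At 10 mM it passed in 4 settings, among them limma-voom (-0.79, adjusted p = 0.0166).

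The list named PERK-ATF4-CHOP arm held 16 genes of the endoplasmic reticulum stress response, all tested. At 10 mM 10 were called higher and 0 lower, and at 20 mM 12 higher and 0 lower, with medians of 0.45 and 0.59, where 12.1% and 15.4% of all genes were called higher and 17.5% and 21.6% lower. These counts and medians include ERN1, ATF6 and XBP1, which belong to other arms of that response. Their log2 fold changes were 0.49, 0.21 and 0.86 at 10 mM, where ATF6 was not called. At 20 mM they were 0.60, 0.24 and 0.84, all called. Without 10 mM replicate 2, 1 gene was called lower at each dose. TRIB3, a pseudokinase induced by ATF4 and CHOP, had the largest change, from 29.7 ± 3.88 to 93.9 ± 6.05 and 114 ± 3.21 FPKM (SD, n = 3 each), with log2 fold changes of 1.64 and 1.92 (limma's adjusted p = 2.66e-06 and 5.10e-07). DDIT3, described earlier, and CHAC1 followed, with nearly the same log2 fold changes (1.20 and 1.21 at 10 mM, 1.47 for both at 20 mM). The BH3-only genes on the list, BBC3 and BCL2L11, had log2 fold changes of 0.23 and -0.02 at 20 mM and were not called.

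Of 14 genes known as p53 targets, a class that also includes FAS and TNFRSF10B, all were tested and 5 were called higher and 1 lower at each dose. Among all genes tested, 12.1% were higher and 17.5% lower at 10 mM, and 15.4% and 21.6% at 20 mM. With any 1 library left out the number of p53 targets called higher at 10 mM was between 2 and 4, so 5 was not reached. With no filter on low values the number was 2. At 20 mM it was 3 without control replicate 1 or with no filter. The medians were 0.13 and 0.18. CDKN1A, the cell cycle inhibitor p21, rose from 44.8 ± 3.00 to 63.3 ± 5.08 and 73.1 ± 5.83 FPKM (SD, n = 3 each), with log2 fold changes of 0.49 and 0.69 (limma's adjusted p = 0.00165 and 0.000146). TP53I3 rose by 0.40 and 0.62 on the log2 scale (limma's adjusted p = 0.0155 and 0.00120), and DDB2, a DNA repair gene, fell by 0.41 and 0.42. MDM2, the ubiquitin ligase of p53, had a log2 fold change of -0.24 at 20 mM and was not called. Between the doses 0 genes of the 5 lists passed limma's test, as for all genes.

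**Figure D5:**
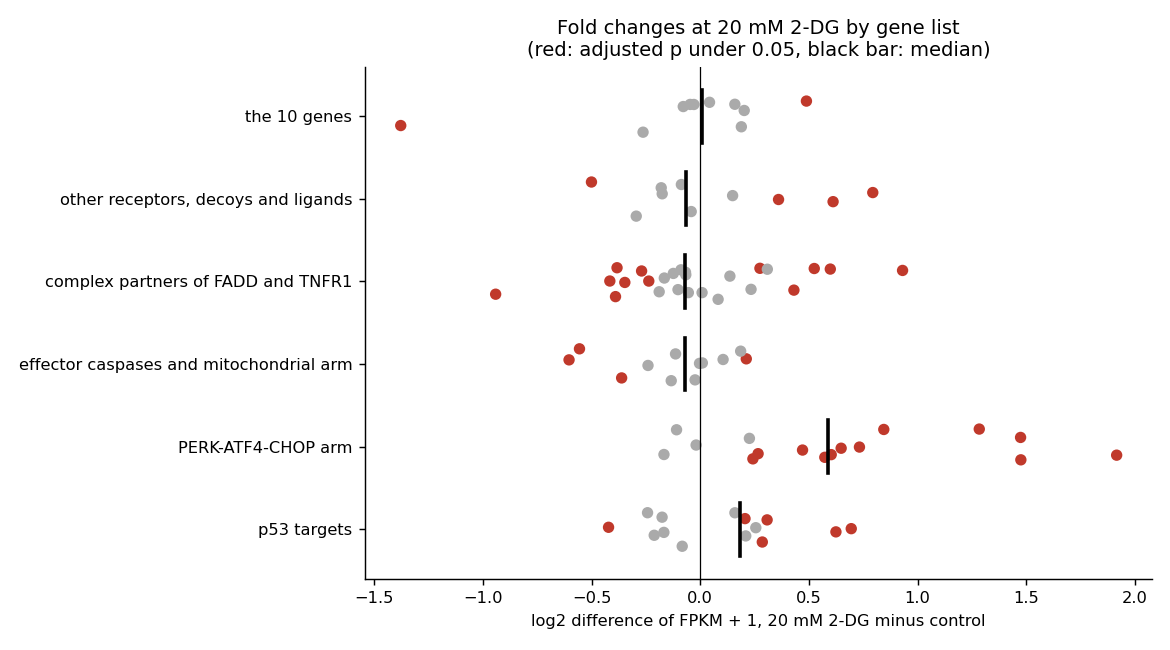
Log2 fold change of FPKM + 1 at 20 mM 2-DG against the control (x axis) for the 10 genes and the tested genes of 5 lists (y axis), with a point per gene, red where limma's adjusted p was under 0.05, and a black bar at each median. The median of the list named PERK-ATF4-CHOP arm is 0.59 with 12 of 16 genes red on the right. That list also holds ERN1, ATF6 and XBP1 of other stress arms. The 10 genes have a median of 0.01 and 2 red points on opposite sides.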

How the data were processed

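From 1.3 µg of RNA per sample, isolated with a Qiagen kit, the authors built SMARTER mRNA-Seq libraries and deposited FPKM values for 61552 Ensembl genes, 1 file per library. The submitters' processing notes name GRCh38 (hg38). The aligner, counter, annotation release and strand setting are not given in the sources used here. Groups came from the labelled dose. The FPKM values were turned back into library totals and whole reads, for 32806 of 32806 genes above 0, within 1e-06 reads (0.0001 reads for 4 genes), and made up 99.8% to 99.9% of the totals. They served for the filter and for limma-voom, and are not the authors' counts. limma 3.58.1 in R 4.3.3 (lmFit, contrasts, eBayes with trend) was fitted to log2(FPKM + 1) of all 9 libraries, over the 16572 genes that reached 10 reads, scaled to the median depth, in 3 or more libraries and 15 reads in total, with Benjamini-Hochberg adjustment. A gene was called at an adjusted p under 0.05. The thresholds of the study's methods (p of 0.05, taken here as unadjusted, and a log2 change of 1), set there for a fit to counts, were tried as another call rule on limma's values.

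The members and the 5 lists of 82 genes were chosen with earlier results of these data known. Named genes were the 10 members, DDIT3, per list the 2 called genes with the largest change at 20 mM, and 5 genes of closest pattern for TNFRSF10B and TNFSF10. Other list genes were named after their values were seen. Positions and exon overlaps came from GENCODE 29, and promoter sequence from RefSeq (GRCh38.p14). Within groups the libraries correlated at 0.989 to 0.996 (Pearson, log2 scale) and differed beyond sampling noise, so none was counted as a repeat. The correlations were 0.989 to 0.994 at 10 mM 2-DG, 0.994 to 0.995 in the control and 0.996 at 20 mM 2-DG. The fit shares 1 estimate of the spread per gene across the groups, so the spread at 10 mM bears on every comparison. The fits were tested on simulated data. Pseudocount, filter, scaling, test, replicate block and left-out libraries were varied.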

Additional observations from a re-analysis of the deposited data

How the results depend on the processing

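TNFSF10 stayed called lower and TNFRSF10A called higher at both doses under every alternative fit and with each library left out. Of 177 member fold changes under other settings 171 kept direction and side of the threshold, and of 270 with a library left out 254 did; the cause of the exceptions was not tested. With median-ratio scaling 2 members were called higher at 20 mM (TNFRSF10D added, 0.25), and the values of CFLAR (0.021 at 10 mM, 0.011 at 20 mM) and TNFRSF10B (0.0074 at 20 mM) changed sign. limma-voom called 3 lower at 20 mM, adding FAS (-0.55) and CASP8 (-0.37). The call rule with a fold threshold left 0 members higher at either dose. Ratios of FPKM + 1 gave a log2 of -0.29 for CASP8 to CFLAR and 2.13 for the receptors to the decoys at 20 mM.

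With a library left out, counts at 20 mM ranged from 1 to 2 higher and 1 to 2 lower. TNFRSF1A at 20 mM ranged from 0.17 to 0.22 and CASP8 from -0.36 to -0.16, and both passed in some. Signs changed for members near 0: at 10 mM TNFRSF10C (-0.084 to 0.076), FADD (-0.0053 to 0.12) and CFLAR (-0.065 to 0.028), at 20 mM TNFRSF10B (-0.099 to 0.013) and TNFRSF10C (-0.048 to 0.11), and between the doses TNFRSF10C (-0.020 to 0.085), TNFRSF10D (-0.027 to 0.074), TNFRSF1A (-0.0050 to 0.15) and CFLAR (-0.058 to 0.036). TNFRSF10C has no value at 10 reads in every library. The replicate numbers do not pair the libraries (correlations of deviations from -0.41 to 0.29 between groups at the same number). At unlike numbers these correlations between groups ran from -0.23 to 0.52. The highest were 0.52 (control 1 with 10 mM replicate 2) and 0.49 (control 2 with 10 mM replicate 1). The replicate block follows the numbers and does not cover such pairs, whose source was not tested. With the replicate block 1 member was higher and 1 lower at each dose. List counts, an alternative added after seeing the data, moved by over 1.5 times in 6 of 120 cases under other settings and in 21 of 180 with a library left out. Depth limits TNFRSF10C, and the pseudocount and the unknown counted bases limit FAS.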
